A study of Lens culinaris with 18 samples.

Results

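A group of 150 lentil genes was described that stood higher in the seed coat of M11 than in the seed coat of both cultivars, Redmoon and Gold, while their embryo levels lay within 2-fold between M11 and each cultivar. The genes were chosen from these measurements. A gene had to have a mean of at least 5 CPM (counts scaled to a common library size) in M11 seed coat, at least 1 CPM in every embryo group, and embryo log2 ratios of M11 to each cultivar between -1 and 1. Of 58243 genes in the deposited tables, 33300 had at least 1 count and 8673 met these criteria. They were ranked by the smaller of their 2 seed coat log2 ratios, M11 over Redmoon or M11 over Gold, and the first 150 were kept. CPM were scaled by TMM (trimmed mean of M values, which sets the bulk of genes level between libraries) within each tissue, and 0.5 CPM was added to group means before ratios were taken. LcLTP3b (Lcu.2RBY.4g013600), which encodes the allergen Len c3, and 16 genes for the 7S storage protein vicilin were left out by the rule. The smaller seed coat ratio of LcLTP3b, 4.31, was above the highest among the 150, 4.03. Whether LcLTP3b met the level and embryo criteria was not examined.

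The study compared dissected mature green seeds of 3 lentil lines by RNA-seq. M11 is the natural line CN 45073, which carries several mutations in LcLTP3b, one of them a premature stop, in both tissues. CDC Redmoon and CDC Gold are bred cultivars. Embryo and seed coat with endosperm, called seed coat here, were sequenced with 3 libraries per line and tissue, 18 in all. M11 is a single line that differs from the cultivars across its genome, so a difference from both cultivars cannot be told apart from other differences of background. The sources used here do not say if replicate libraries were made from separate plants, and adjusted p-values then measure only the spread between these libraries.

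The seed coat is maternal tissue that encloses the embryo, passes nutrients to it and forms the outer barrier of the seed with its pigments and cell wall polymers. The endosperm arises at fertilisation and in legumes is largely used up while the embryo grows. The embryo stores most of the seed's protein, chiefly as globulins such as vicilin. No gene names, products or sequences were paired with the identifiers in the sources used here, so the genes are named by identifier and no role is given for them. In an identifier such as Lcu.2RBY.7g012620 the digit before the letter g is the chromosome.

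Library totals ran from 5907695 to 24309401 counts in seed coat and from 3270275 to 22958727 in embryo. The lowest total was that of Gold embryo replicate 3, in which 42 of the 150 genes had under 10 counts. Intervals below cover counting error only. The tissue labels were checked with the 16 vicilin genes as embryo markers. All 16 had counts in every embryo group, with sums from 138411 to 141856 CPM of library total in M11 and from 330641 to 359785 CPM in the cultivars. In every seed coat group 15 had counts and 1 was at 0, and the sums ran from 2007 to 2256 CPM for M11, from 7152 to 7827 CPM for Redmoon and from 1703 to 1938 CPM for Gold. The cultivar names did not hold together across tissues. In each tissue, 116 genes had at least 2 CPM in all libraries of one cultivar and at most 0.1 CPM in all libraries of the other, and for all 116 the expressing cultivar in seed coat was not the expressing cultivar in embryo. None of the 150 genes was among them, and since the rule treats the cultivars alike, an exchange of the names within a tissue would leave the same 150 genes. Redmoon and Gold below are the libraries labelled so.

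The 150 genes were 3.43-fold higher in M11 seed coat than in the nearer cultivar at the median, a log2 ratio of 1.78 with quartiles of 1.56 and 2.24. The smaller ratio ran from 1.36 to 4.03. It was at least 3, which is 8-fold, in 12 genes, at least 2 in 51 and under 1.5 in 30. Redmoon was the nearer cultivar for 78 genes and Gold for 72, and the median log2 ratio was 1.99 to either. Over the 8673 genes that met the criteria the medians were 0.02 to Redmoon and 0.00 to Gold. These ratios chose the genes and are given as a description. The ratios to the cultivars lay within 0.5 of each other in 89 genes, differed by over 1 in 34 and by over 2 in 10.

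**Figure D1:**
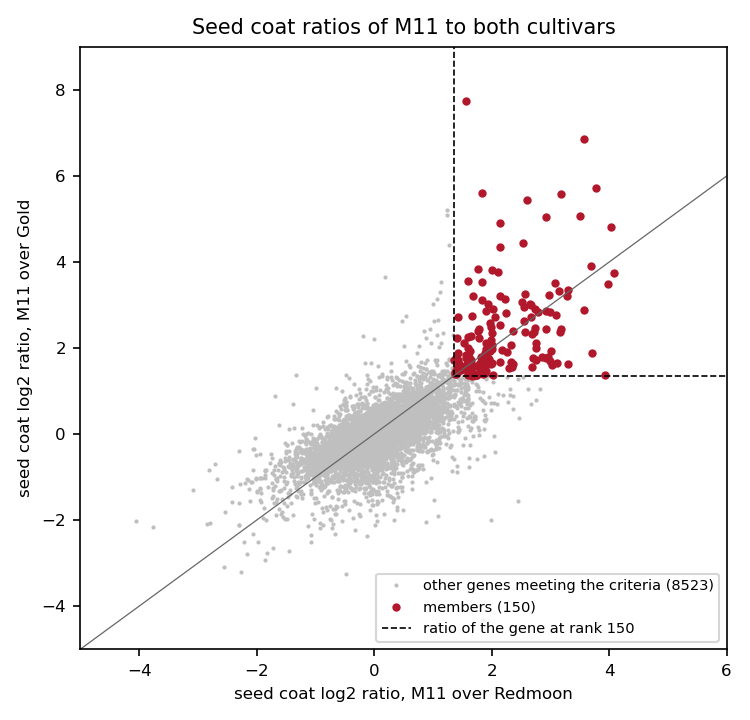
Seed coat log2 ratio of M11 over Redmoon (horizontal) and M11 over Gold (vertical), 1 point per gene, with the 150 chosen genes in red and the other 8523 genes that met the criteria in grey. The dashed lines mark the ratio of the gene at rank 150, 1.36, and the points far above the diagonal are genes much lower in Gold than in Redmoon.

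As a share of all counts the 150 genes made up 1.56% ± 0.0268 (SD, n = 3) of M11 seed coat libraries, 0.375% ± 0.00724 of Redmoon and 0.185% ± 0.00457 of Gold. Summed TMM-scaled CPM were 14531 ± 249, 3991 ± 55.9 and 1868 ± 38.6 in that order. A single gene, Lcu.2RBY.5g074150, took much of the first 2 sums. Without it they were 9089 ± 76.8 in M11, 2145 ± 54.0 in Redmoon and 1843 ± 40.2 in Gold. In embryo the sums of all 150 were closer, at 6111 ± 58.1, 5866 ± 133 and 5236 ± 91.7. In bulk tissue, fewer cells of a type and less RNA per cell cannot be told apart, and that holds for every level given here.

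The gene with the highest smaller ratio, 4.03, was Lcu.2RBY.7g012620 on chromosome 7. Its seed coat libraries held 14.0, 14.9 and 15.7 CPM in M11, 0.396, 0.282 and 0.636 in Redmoon, and 0, 0.144 and 0 in Gold. Embryo means were 6.75 ± 0.205 in M11, 5.40 ± 0.672 in Redmoon and 6.64 ± 1.83 in Gold, and the Gold embryo libraries spanned those of the other lines. The gene was thus read in all embryos and stood under 1 CPM in every cultivar seed coat library. By edgeR its Redmoon embryo level was called below M11 (log2 fold change of M11 minus Redmoon 0.29, adjusted p = 0.0428) and below Gold (Redmoon minus Gold -0.47, adjusted p = 0.00851). The 3 Gold seed coat libraries together held 3 counts against 304 in M11, a ratio of 338 with an exact 95% counting interval of 115 to 1648.

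Lcu.2RBY.2g012970, the second in rank with a ratio of 3.78, stood at 78.6, 74.8 and 74.9 CPM in M11 seed coat. Redmoon libraries had 5.35, 4.79 and 5.08 CPM and Gold libraries 0.908, 1.30 and 0.622 CPM. The 3 lines formed 3 separate levels in seed coat, while embryo means of 4.01, 4.95 and 4.79 CPM in M11, Redmoon and Gold were within 1 CPM of each other. A similar order was seen for Lcu.2RBY.1g072020, with 193, 180 and 186 CPM in M11 seed coat, 15.4, 12.8 and 17.6 in Redmoon, and 1.43, 1.06 and 0.871 in Gold. Its embryo mean was 12.1 CPM in M11, 5.87 in Redmoon and 7.61 in Gold, so that it also lay near the upper embryo limit of the rule against Redmoon, with a log2 ratio of 0.99. The order M11, Redmoon, Gold was shared by Lcu.2RBY.4g077620, at 82.6, 82.7 and 78.8 CPM in M11 seed coat, 6.84, 6.34 and 7.08 in Redmoon, and 2.64, 1.01 and 2.12 in Gold. Its embryo levels ran the other way, with all M11 libraries (15.1 to 16.5 CPM) below all cultivar libraries (20.4 to 27.1 CPM). Lcu.2RBY.4g001420 had 28.5, 24.7 and 24.0 CPM in M11 seed coat, 1.98, 1.97 and 3.27 in Redmoon, and 0.0432, 0.0480 and 0.0415 in Gold, where each library held 1 count. Its M11 to Gold ratio in seed coat was 581 from 523 counts against 3, with an exact 95% counting interval of 198 to 2829.

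In the other 5 of the first 10 genes neither cultivar seed coat was called above the other. Lcu.2RBY.3g032500 had 38.5, 43.2 and 39.4 CPM in M11 seed coat, 1.29, 1.27 and 3.18 in Redmoon, and 2.20, 2.88 and 2.61 in Gold. Lcu.2RBY.6g019620 had 14.2, 14.6 and 13.5 CPM in M11 seed coat, 0.991, 0.423 and 0.454 in Redmoon, and 0.432, 0.480 and 0.498 in Gold. Lcu.2RBY.5g002640 had 19.3, 16.6 and 17.2 CPM in M11 seed coat, 0.594, 0.563 and 0.817 in Redmoon, and 1.21, 1.06 and 1.08 in Gold. In each of these 3 genes M11 seed coat was separated from the cultivars by more than 10 CPM, and the cultivars differed by less than 1 CPM in their means. Lcu.2RBY.5g065200 had 7.39, 7.16 and 7.63 CPM in M11 seed coat, 0.198, 0.423 and 0.272 in Redmoon, and 0.303, 0.144 and 0.373 in Gold. Lcu.2RBY.6g002160 had 18.6, 24.0 and 20.7 CPM in M11 seed coat, 1.68, 1.55 and 1.91 in Redmoon, and 0.951, 2.21 and 2.28 in Gold. The cultivar libraries overlapped in both. For the 5 genes the edgeR adjusted p between Redmoon and Gold seed coats ran from 0.0781 for Lcu.2RBY.5g002640 to 0.967 for Lcu.2RBY.5g065200.

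**Figure D2:**
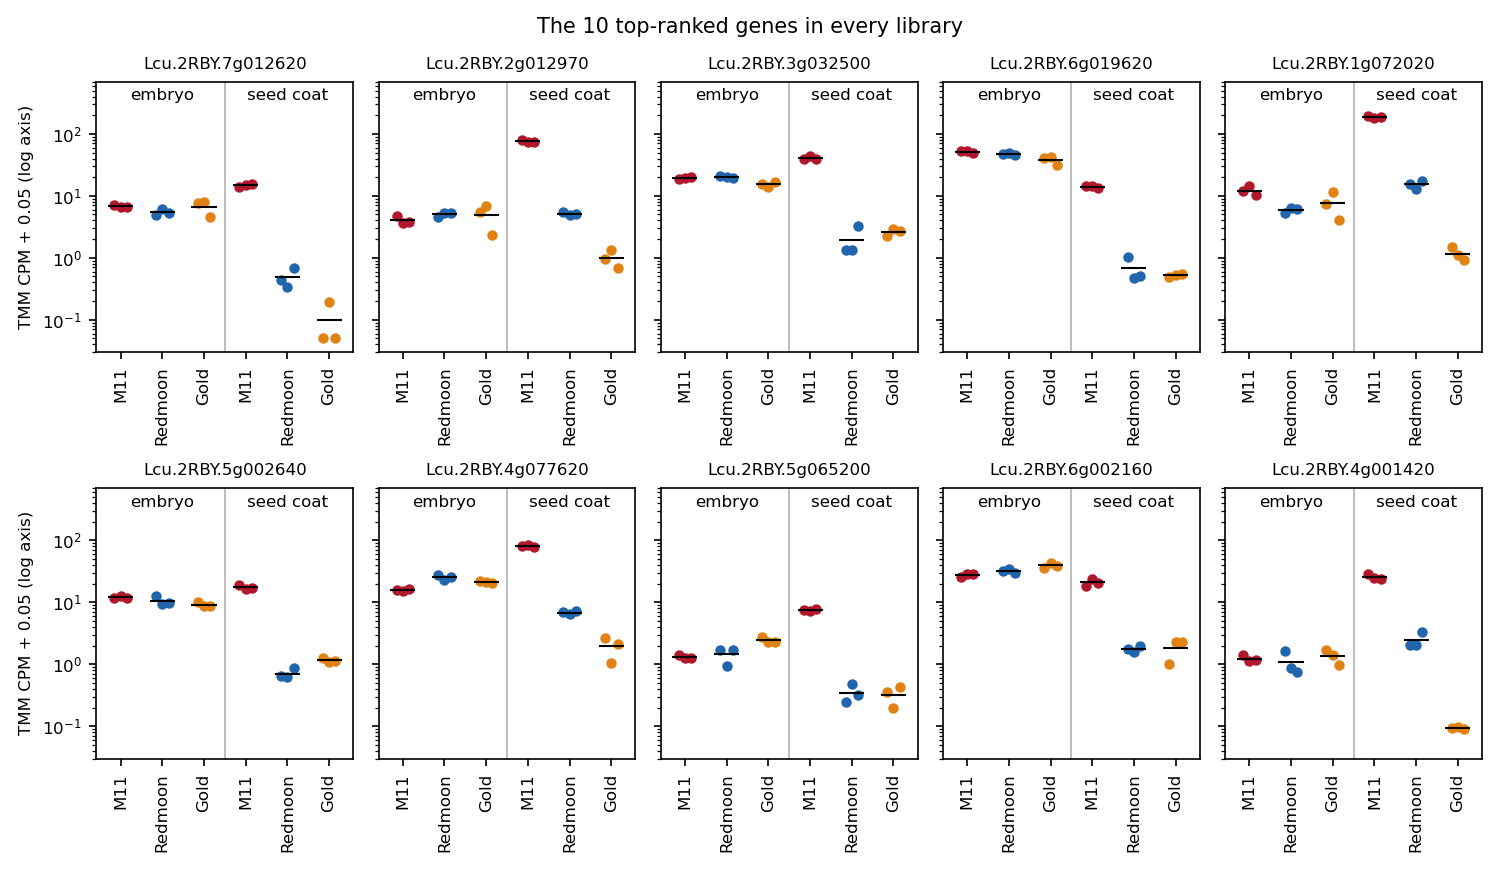
TMM-scaled CPM, with 0.05 added and on a log axis, of the 10 genes with the highest smaller seed coat ratio, with 1 point per library and a bar at the mean of 3. Within seed coat M11 stood above both cultivars in every panel, and the embryo means of each line lay within the 2-fold limit of the rule, with 0.5 CPM added. Each tissue was scaled on its own, so points are compared within a tissue only.

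A further 5 genes were described for their high CPM in M11 seed coat, which also depends on transcript length. Lcu.2RBY.5g074150 on chromosome 5 had 5586, 5207 and 5532 CPM in M11 seed coat and 1831, 1873 and 1836 CPM in Redmoon. Gold seed coats had 25.5, 28.9 and 19.7 CPM, so that the gene was abundant in 2 lines and low in the third. Its embryo levels were 42.6, 37.4 and 46.1 CPM in M11, 16.9, 53.4 and 15.0 in Redmoon, and 32.4, 37.4 and 29.5 in Gold. Redmoon replicate 2 stood apart from the other Redmoon libraries, which lay more than 2-fold below every M11 embryo library. The gene's place within the embryo limit of the rule thus rested on that library. Lcu.2RBY.4g000440 was also uneven between the cultivars, at 319, 304 and 318 CPM in M11 seed coat, 66.8, 60.6 and 84.1 in Redmoon, and 15.9, 14.4 and 14.4 in Gold.

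In the other 3 the cultivars were near each other. Lcu.2RBY.3g060790 had 654, 643 and 660 CPM in M11 seed coat, 127, 127 and 136 in Redmoon, and a mean of 156 ± 3.24 in Gold. Lcu.2RBY.7g077390 had 551, 540 and 585 CPM in M11, a mean of 149 ± 1.32 in Redmoon, and 145, 137 and 143 CPM in Gold. Lcu.2RBY.5g069260 had 395, 374 and 345 CPM in M11, 109, 125 and 134 in Redmoon, and 132, 122 and 125 in Gold. All 3 were plainly read in embryos as well. The embryo mean of Lcu.2RBY.3g060790 was 1054 ± 24.0 CPM in M11, which lay between 850 ± 22.6 in Gold and 1193 ± 37.3 in Redmoon.

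The rule's threshold fell within a continuous run of values. The last 3 genes taken were Lcu.2RBY.1g044350, Lcu.2RBY.1g031000 and Lcu.2RBY.1g044620, with smaller ratios of 1.37, 1.36 and 1.36. The first 3 not taken were Lcu.2RBY.5g003510, Lcu.2RBY.5g018600 and Lcu.2RBY.7g055230, with 1.35, 1.35 and 1.34. For Lcu.2RBY.1g044620, at rank 150, seed coat levels were 57.6, 56.4 and 59.4 CPM in M11, 15.7, 18.5 and 19.8 in Redmoon, and 21.3, 23.9 and 21.4 in Gold. There too the M11 libraries lay above all cultivar libraries, as in 25.5% of genes tested in seed coat. The rule ranked on these values, so nothing is read from this.

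All 150 genes passed the low-count filter in both tissues, and all 150 were called higher in M11 seed coat than in Redmoon by edgeR (adjusted p under 0.05), against 37.2% of the 19386 genes tested. Against Gold all 150 were called as well, beside 35.9% of genes tested. Every M11 library lay above every cultivar library in all 150, beside 25.5% of genes tested. These comparisons chose the genes, so nothing is read from the counts.

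The same measure was taken in libraries that the rule did not use. The rule was applied to 2 replicate numbers of every group and the ratios were read in the remaining number, each left out in turn. The CPM kept the scaling made with all libraries of a tissue. Each choice shared 130 to 133 genes with the 150. In the unused libraries the median smaller ratio was 1.80, 1.76 and 1.77 for replicate numbers 1, 2 and 3, beside 1.74, 1.77 and 1.81 in the libraries used. All 150 chosen genes were again higher in M11 seed coat each time, and at least 142 of them by 2-fold or more. The lowest value was a log2 ratio of 0.51. In embryo, 123 to 135 of the chosen genes were within 2-fold in the unused libraries. Shares of all genes were not taken beside these counts, which are a description. The spread between libraries was wider in the genes' low groups. The median coefficient of variation was 7.41% in M11 seed coat, 14.9% in Redmoon and 10.2% in Gold, beside 6.83%, 5.68% and 4.01% over all genes that met the criteria.

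Seed coat and embryo were next compared within each line, after 1 scaling of all 18 libraries, to describe whether the genes stood high in M11 or low in the cultivars. In M11 the 150 genes were at about the same level in both tissues at the median, with a seed coat minus embryo log2 difference of -0.04. In Redmoon seed coat they were 4.10-fold below Redmoon embryo at the median, a difference of -2.04, and in Gold they were 3.90-fold below, a difference of -1.96. The 8673 genes that met the criteria had medians of -0.05, -0.05 and 0.04 in the 3 lines. The label "raised in M11 seed coat" therefore describes the contrast between lines, whereas beside their own embryo the median gene was low in cultivar seed coat. With the cultivar names exchanged between tissues the medians were -1.94 for Redmoon seed coat beside Gold embryo and -1.87 for Gold seed coat beside Redmoon embryo. Relative to the median of the 8673 genes, the medians in M11, Redmoon and Gold were 0.01, -1.98 and -2.01. With size factors of the DESeq2 type, computed in edgeR, these were 0.01, -2.01 and -2.01, and with library totals alone -0.00, -2.07 and -2.08. Before that centring, library totals alone gave 0.39 in M11, -1.27 in Redmoon and -0.65 in Gold, with the 8673 genes at 0.39, 0.80 and 1.44. Levels in both tissues entered the rule, so no test was made.

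**Figure D3:**
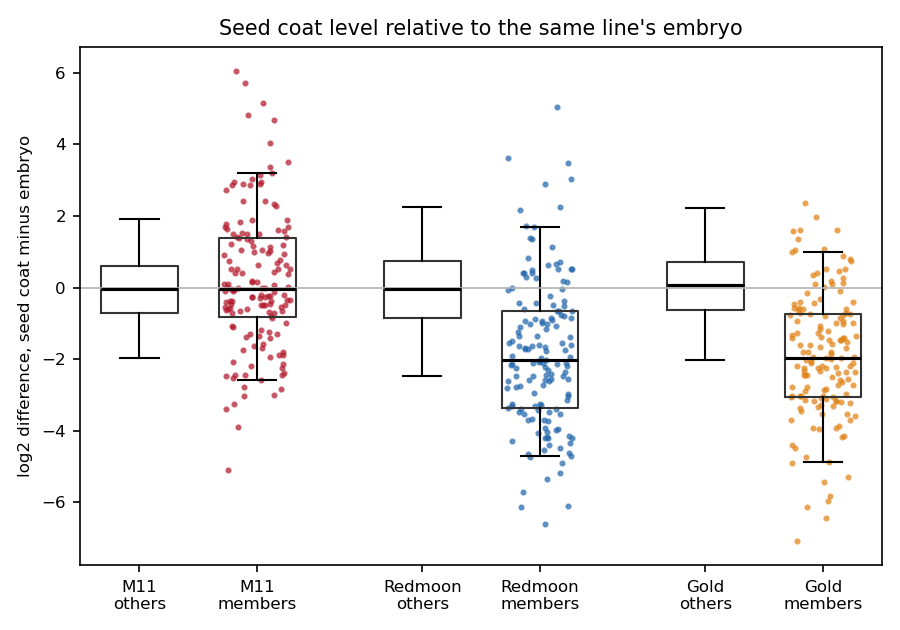
Log2 difference of seed coat minus embryo in each line, for the 150 genes (coloured points) and for the other 8523 genes that met the criteria, with boxes from the lower to the upper quartile, a bar at the median and whiskers at the percentiles 5 and 95. The 150 genes centre on -0.04 in M11, -2.04 in Redmoon and -1.96 in Gold, while the other genes centre near 0 in all 3 lines.

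Gene by gene, 47 of the 150 were at least 2-fold higher in M11 seed coat than in M11 embryo, 36 at least 2-fold lower and 67 within 2-fold. These were 31.3%, 24% and 44.7% of the 150 genes, beside 15.5%, 17.4% and 67.1% of the 8673 genes that met the criteria. In Redmoon the counts were 12, 101 and 37, or 8%, 67.3% and 24.7%, beside 18.8%, 22.5% and 58.7% of the 8673. In Gold they were 8, 104 and 38, or 5.33%, 69.3% and 25.3%, beside 18.2%, 16.9% and 64.9%. The rule used these levels, so the shares are a description. The most common pattern, in 54 genes, was a level within 2-fold of embryo in M11 and at least 2-fold below embryo in both cultivars. That was 36% of the 150 and 2.86% of the 8673 genes. A further 36 genes (24%, beside 11.4% of the 8673) were at least 2-fold below embryo in all 3 lines. Another 7 (4.67%, beside 10.3%) were at least 2-fold above embryo in all 3 lines, and 3 (2%, beside 0.0346%) were above embryo in M11 and below it in both cultivars. With library totals alone the count of 54 became 25. The 93 genes below embryo in both cultivars became 55, and 94 when read relative to the median gene.

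The largest differences between tissues in M11 were those of Lcu.2RBY.5g074150, which was 66.6-fold higher in seed coat than in embryo (log2 difference of 6.06), and of Lcu.2RBY.4g008370, which was 52.7-fold higher (5.72). They differed in the cultivars. Lcu.2RBY.4g008370 was also higher in seed coat in both, with differences of 2.89 in Redmoon and 2.36 in Gold, and its libraries had 291, 309 and 318 CPM in M11 seed coat, 46.2, 49.4 and 49.2 in Redmoon, and 36.4, 35.2 and 39.2 in Gold. Lcu.2RBY.5g074150 was higher in seed coat in Redmoon (5.04) and lower in Gold (-1.27). The Redmoon embryo mean of this gene included replicate 2, which stood apart. At the other end, Lcu.2RBY.2g056180 and Lcu.2RBY.5g052850 were mainly read in embryo in all lines. M11 had a difference of -5.10 for Lcu.2RBY.2g056180, beside -6.61 and -6.45 for Redmoon and Gold. Its embryo libraries lay between 114 and 139 CPM in the 3 lines, and its seed coat libraries held 6.76, 5.84 and 6.52 CPM in M11, 1.59, 1.83 and 1.36 in Redmoon, and 1.82, 2.69 and 1.91 in Gold. For Lcu.2RBY.5g052850 the difference was -3.90 in M11, -6.11 in Redmoon and -6.13 in Gold.

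Vicilin RNA, the embryo marker, was measured beside these levels, since the genes were read in embryo too. On the scale of all 18 libraries the summed vicilin CPM of M11 seed coat were 1.10% of those of M11 embryo, beside 1.19% for Redmoon and 0.187% for Gold. The median level of the 150 genes in seed coat was 97.6%, 24.4% and 25.6% of embryo in the same order. No gene in M11 or Gold, and 4 in Redmoon, had a seed coat level at or under the vicilin percentage. The cultivar percentages and these counts pair the tissues by cultivar name, which did not hold together between tissues. On this scale the seed coat sums of vicilin were 1406 CPM in M11, 5645 in Redmoon and 1365 in Gold. Percentages with exchanged names were not taken, so nothing is read from the contrast between the cultivars. Summed vicilin in M11 seed coat, at 2102 ± 135 CPM of library total, lay between Gold (1807 ± 120) and Redmoon (7470 ± 339). Embryo sums of vicilin also differed by line: 127630 CPM for M11, 475747 for Redmoon and 729763 for Gold, scaled over all 18 libraries. Seed coat sums alone therefore do not compare the embryo share between lines. The part of embryo RNA in the seed coat levels was not tested beyond these values.

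Within embryo, where the rule held both ratios between -1 and 1, the median log2 fold change of the 150 genes was 0.13 for M11 minus Redmoon and 0.29 for M11 minus Gold. By edgeR 57 were called higher in M11 than in Redmoon (31.5% of 18623 genes tested) and 25 lower (32.1%), and 68 were not called. Against Gold 76 were called higher (36.9% of genes tested) and 35 lower (37.1%), and 39 were not called. Every M11 embryo library lay above every cultivar embryo library in 44 genes (27.9% of genes tested) and below in 14 (22.4%). The rule used these embryo values, so nothing is read from the counts. M11 was called higher than both cultivars in 44 genes (25% of genes tested), lower than both in 15 (24.5%), on opposite sides of the cultivars in 8 (4.02%), and in neither comparison in 24 (15.9%). With library totals alone, 134 and 145 genes were called higher in M11 than in Redmoon and Gold. The share of all genes tested was not counted there, so nothing is read from these counts. On that scale the median log2 ratio of all 8673 genes that met the criteria was 0.60 to Redmoon and 1.16 to Gold.

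The gene with the highest mean embryo ratio was Lcu.2RBY.2g023570, with embryo means of 7.22 ± 0.354 CPM in M11, 3.60 ± 0.186 in Redmoon and 3.80 in Gold (3.17 to 4.56). Its seed coat libraries held 15.1, 14.6 and 12.8 CPM in M11, 2.97, 2.96 and 3.45 in Redmoon, and 4.88, 5.57 and 4.94 in Gold. It was thus higher in M11 in both tissues. The lowest was Lcu.2RBY.L011130, whose identifier carries no chromosome number. Its embryo means were 4.84 ± 0.708 CPM in M11, 9.22 ± 0.643 in Redmoon and 8.88 ± 0.947 in Gold, against seed coat means of 5.63 ± 0.498, 0.694 ± 0.118 and 1.48 ± 0.444. It stood lower in M11 embryo and higher in M11 seed coat, but with library totals alone its M11 minus Gold log2 fold change in embryo turned from -0.86 to 0.40.

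Redmoon and Gold were then compared with each other. In embryo the rule bounds how far apart they can be, since both lie within 2-fold of M11. In seed coat it sets no such bound, and in neither tissue does it set which cultivar is higher. In seed coat 48 of the 150 genes were called higher in Redmoon (32.6% of genes tested) and 38 lower (33.8%), and 64 were not called, with a median log2 fold change of 0.03. At least 2-fold differences were called in 24 genes with Redmoon higher (9.64% of genes tested) and in 15 with Gold higher (13.4%). In embryo 46 were called higher in Redmoon (27.7% of genes tested) and 31 lower (27.4%), and 73 were not called, with a median of 0.07. In seed coat neither share of the 150 genes called at any size, 32% and 25.3%, was above that of all genes tested. With the 2-fold limit the shares of the 150 were 16% with Redmoon higher, beside 9.64%, and 10% with Gold higher, beside 13.4%. Of 44 genes called in both tissues, 19 had the same direction and 25 the opposite direction under the labels as given, beside 11.9% and 28% of the 16746 genes tested in both tissues. These counts would exchange if the cultivar names were exchanged in 1 tissue. A further 42 were called in seed coat only (25.7% of those tested), 33 in embryo only (16.6%) and 31 in neither (17.9%).

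**Figure D4:**
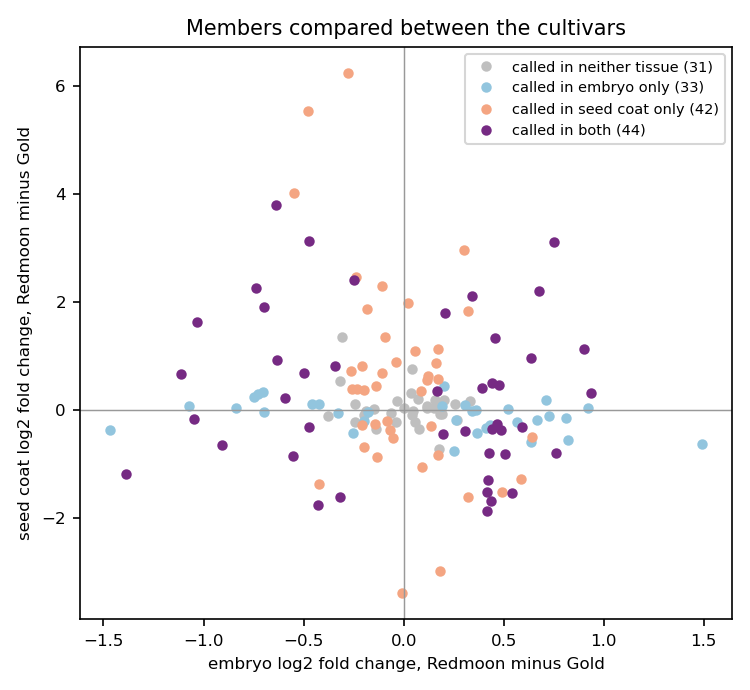
Log2 fold change of Redmoon minus Gold in embryo (horizontal) and in seed coat (vertical) for the 150 genes, 1 point per gene, coloured by the tissues in which edgeR called it. The seed coat axis runs from -3.38 to 6.24, while all embryo values lie between -1.47 and 1.49.

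The largest cultivar difference in seed coat was that of Lcu.2RBY.5g074150, with a log2 fold change of 6.24 ± 0.0612 (SE) and an edgeR adjusted p of 1.44e-63. It was 75.7-fold higher in Redmoon. Its embryo levels were not called between the cultivars (edgeR adjusted p = 0.414), with Redmoon embryo replicate 2 apart from the other Redmoon libraries. For Lcu.2RBY.4g001420, the second in that order, 70 counts in Redmoon stood against 3 in Gold, a ratio of 56.3 with an exact 95% counting interval of 18.5 to 280 (edgeR adjusted p = 7.87e-16). The reverse order was seen in Lcu.2RBY.7g018320 and Lcu.2RBY.2g070470. Seed coat levels of Lcu.2RBY.7g018320 were 7.71, 9.49 and 8.47 CPM in M11, 0.198, 0.282 and 0.0908 in Redmoon, and 1.64, 2.02 and 2.20 in Gold. It was 10.4-fold lower in Redmoon than in Gold (log2 fold change of -3.38 ± 0.466, edgeR adjusted p = 4.25e-09), from 5 counts over the 3 Redmoon libraries. Lcu.2RBY.2g070470 had 28.5, 22.9 and 23.9 CPM in M11 seed coat, 1.59, 1.13 and 0.817 in Redmoon, and 8.73, 8.69 and 10.5 in Gold. It was 7.87-fold lower in Redmoon (-2.98 ± 0.210, edgeR adjusted p = 2.02e-19), and in embryo the cultivars were not called for it (adjusted p = 0.230).

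The 150 genes lay on all 7 chromosomes. There were 21 on chromosome 1, 24 on chromosome 2, 16 on chromosome 3, 28 on chromosome 4, 26 on chromosome 5, 15 on chromosome 6 and 19 on chromosome 7, and 1 had an identifier with the letter L. Chromosome 4 held 18.7% of them and 15.3% of genes tested, and chromosome 5 held 17.3% and 13.3%. On the low side, chromosome 3 held 10.7% and 13.9%, and chromosome 6 held 10% and 12.2%. Neighbours were few. Within 5 positions in the order of tested genes there were 5 pairs, which took in 10 of the 150 genes, and no longer run. The library kit does not keep strand and the handling of reads that match several genes is not known, so overlapping or near-identical neighbours cannot be told apart.

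The only directly adjacent pair was Lcu.2RBY.2g010550 and Lcu.2RBY.2g010560 on chromosome 2. The first had 5.82, 7.45 and 9.02 CPM in M11 seed coat, 2.28, 1.41 and 1.54 in Redmoon, and 2.16, 1.25 and 1.91 in Gold. Lcu.2RBY.2g010560 had 299, 292 and 294 CPM, 75.2, 76.8 and 71.2 CPM, and 96.4, 94.1 and 96.4 CPM in the same order. Both were higher in M11. The cultivars were called different for Lcu.2RBY.2g010560, with a Redmoon minus Gold log2 fold change of -0.36 ± 0.0477 and an edgeR adjusted p of 1.80e-09, and not for Lcu.2RBY.2g010550, with -0.0041 ± 0.281 and an adjusted p of 0.993. The difference between the 2 genes was not tested. Lcu.2RBY.5g074150 paired with Lcu.2RBY.5g074200, which had 37.7, 44.4 and 43.2 CPM in M11 seed coat, 13.2, 14.1 and 13.3 in Redmoon, and 17.6, 15.8 and 14.1 in Gold. The low Gold level of Lcu.2RBY.5g074150 was not seen in this neighbour, for which the cultivars were not called (edgeR adjusted p = 0.0505).

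Lcu.2RBY.7g012620, first in rank, paired with Lcu.2RBY.7g012740, which had 10.2, 15.5 and 13.0 CPM in M11 seed coat, 3.07, 3.80 and 3.09 in Redmoon, and 3.98, 4.61 and 3.98 in Gold. The pair Lcu.2RBY.1g076500 and Lcu.2RBY.1g076620 had M11 seed coat means of 38.5 ± 3.42 and 19.6 ± 1.75 CPM, Redmoon means of 8.50 ± 0.524 and 2.06 ± 0.365, and Gold means of 2.35 ± 0.233 and 1.64 ± 0.178. Lcu.2RBY.5g064300 and Lcu.2RBY.5g064350 had means of 45.3 ± 1.97 and 63.7 ± 1.95 CPM in M11, 6.34 ± 1.16 and 23.4 ± 0.777 in Redmoon, and 5.58 ± 0.596 and 18.9 ± 1.77 in Gold. Within a pair the ratios of M11 to the cultivars thus differed at the means, which was not tested. The nearest of the 150 genes to LcLTP3b was Lcu.2RBY.4g013890, 29 rows away in the tables, and Lcu.2RBY.4g077620 lay 6 rows from the vicilin gene Lcu.2RBY.4g077560.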

How the data were processed

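RNA-seq counts of embryo and of seed coat with endosperm from M11, Redmoon and Gold were used, with 3 libraries per group and 18 in all. The deposited values were raw counts of reads for 58243 genes in 6 tables, 1 per group. STAR 2.7.10 is named in the submitters' processing notes, while a counting tool, a genome build and the treatment of reads with several matches were not given in the sources used here. Neither a genome nor an annotation was used. Polyadenylated RNA was sequenced from TruSeq v2 libraries.

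Counts were fitted per tissue (9 libraries, 3 groups) in R 4.3.3 with edgeR 4.0.16 (filterByExpr, TMM, glmQLFit, glmQLFTest). The threshold was an adjusted p of 0.05 (Benjamini-Hochberg) over all genes tested, which were 19386 in seed coat and 18623 in embryo. Seed coat and embryo were compared after TMM over all 18 libraries. Ratios used group means plus 0.5 CPM. DESeq2 1.42.0 gave alternative calls, and limma 3.58.1 was loaded by edgeR. Size factors of the DESeq2 type (RLE) were computed in edgeR. The scripts were tested on simulated data.

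The 150 genes, the lists and the tests were chosen with earlier results of these data known. The genes named were the 10 with the highest smaller seed coat ratio, the 5 with the highest CPM in M11 seed coat, the 2 largest called cultivar differences in each direction, the highest and lowest mean embryo ratio, the last 3 genes taken and the first 3 not taken, the genes in runs of neighbours, and the 2 largest and 2 smallest seed coat minus embryo differences in M11.

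Replicate pairs of a group differed by more than sampling noise (chi-square per degree of freedom from 1.53 to 11.0), so no library was counted as a repeat. The alternatives were other scalings and tools, other filters, other added CPM, fits of 2 groups or of all libraries, the replicate number as a block, each library left out, and the cultivar names exchanged in 1 tissue. The scalings of the tissue patterns and those patterns without Gold embryo replicate 3 were added after the data had been seen.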

Additional observations from a re-analysis of the deposited data

Results flagged for a closer look

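Among the named genes, 12 had 17 comparisons in which every library of 1 line lay above those of the other in seed coat and below them in embryo, or the reverse. The difference between tissues was not tested, and the rule itself kept the embryo ratios of M11 small. In the 13 comparisons with M11 the seed coat side came with the choice of genes. There every M11 library lay above every cultivar library in all 150. In embryo every M11 library lay below every cultivar library in 22.4% of genes tested. The share of all genes with such opposite comparisons was not counted. For M11 minus Redmoon the embryo log2 fold change was -0.71 in Lcu.2RBY.4g077620, -0.26 in Lcu.2RBY.6g002160, -0.21 in Lcu.2RBY.3g060790, -0.28 in Lcu.2RBY.5g052850 and -0.95 in Lcu.2RBY.L011130. In seed coat the same genes stood at 3.61, 3.63, 2.35, 2.15 and 3.01.

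For M11 minus Gold the embryo log2 fold change was -0.50 in Lcu.2RBY.4g077620 (5.42 in seed coat), -1.0 in Lcu.2RBY.5g065200 (4.72), -0.59 in Lcu.2RBY.6g002160 (3.58) and -0.43 in Lcu.2RBY.4g008370 (3.09). It was -0.21 in Lcu.2RBY.5g052850 (2.36 in seed coat), -0.86 in Lcu.2RBY.L011130 (1.96), -0.61 in Lcu.2RBY.5g069260 (1.59) and -0.15 in Lcu.2RBY.2g056180 (1.62).

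Between the cultivars, Redmoon minus Gold in embryo was -0.74 in Lcu.2RBY.4g000440 (2.27 in seed coat), 0.46 in Lcu.2RBY.3g060790 (-0.25), 0.48 in Lcu.2RBY.2g010560 (-0.36) and 0.31 in Lcu.2RBY.1g031000 (-0.38). For these 4 the opposite signs rest on the cultivar names, which did not hold together between tissues.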

How the results depend on the processing

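Of 115 alternative values of the summary results other than single libraries left out, 92 kept their direction and stayed close, 21 moved and 2 reversed. Most of the moves came with library totals alone. There 134 genes were called higher and 1 lower in embryo for M11 minus Redmoon. For M11 minus Gold these were 145 and 0 (by edgeR, and 0 also at an unadjusted p under 0.05). For Redmoon minus Gold they were 109 and 6. Shares of all genes tested were not counted with library totals, so nothing is read from these counts. The rule then kept 35 of the 150 genes, since 114 lay beyond its embryo limit and Lcu.2RBY.4g001420 fell under its embryo minimum, at 0.861 CPM in the lowest group. Median ratios became 2.18 and 2.11 in seed coat for M11 to Redmoon and to Gold, and 0.74, 1.43 and 0.59 in embryo for M11 to Redmoon, M11 to Gold and Redmoon to Gold. Seed coat minus embryo medians became 0.39 in M11, a reversal, -1.27 in Redmoon and -0.65 in Gold, and the tissue patterns of 54 and 93 genes became 25 and 55. With size factors of the DESeq2 type the M11 difference was 0.10, also a reversal, and that of Redmoon -1.88. With 0.1 CPM added, M11 to Gold was 2.07 and the differences were -2.18 in Redmoon and -2.16 in Gold. With exchanged cultivar names the Gold difference was -1.87. The rule kept 140 genes with 0.1 CPM added and 129 with 2 CPM added.

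Without single libraries, calls for Redmoon minus Gold in seed coat were 44 to 49 higher and 30 to 38 lower. M11 was called above either cultivar in seed coat in all 150, which came with the choice of genes. Shares of all genes tested were not counted for the calls in this paragraph, so nothing is read from those counts. Embryo calls were 47 to 62 and 23 to 28 for M11 minus Redmoon, 67 to 78 and 28 to 35 for M11 minus Gold, and 37 to 47 and 25 to 33 for Redmoon minus Gold. The rule kept at least 141 genes. Median ratios were 1.97 to 2.04 and 1.96 to 2.05 for M11 to Redmoon and Gold in seed coat. The seed coat minus embryo median was -0.072 to 0.00056 in M11, with the sign turned without M11 embryo replicate 2, -2.05 to -1.99 in Redmoon and -2.02 to -1.87 in Gold. Held-out medians were 1.76 to 1.80. With the replicate number as a block, the calls were 48 and 37 for Redmoon minus Gold in seed coat, 58 and 26, 76 and 35, and 46 and 31 for the embryo comparisons, and 150 against each cultivar in seed coat. The numbers showed no pairing of libraries of different lines within a tissue. Deviations of the 18 pairs of libraries with the same number correlated at -0.04 to 0.07. In 6 of the 18 the correlation was the best of those with the replicates of the other line. Embryo and seed coat libraries were not compared in this way. Of 1184 alternative values for the 33 named genes 1183 kept their direction and side of the threshold. All 33 entered with their seed coat comparisons of M11, which chose the genes, so little is read from this count. Redmoon minus Gold in seed coat was added only for genes named for the largest cultivar differences. Embryo comparisons of M11 were added only for the genes with the highest and lowest mean embryo ratio. Other embryo and cultivar calls of named genes were not followed in this way. Lcu.2RBY.L011130 reversed to 0.40 in embryo for M11 minus Gold with library totals alone. The cause of these moves was not tested. Depth limits the low cultivar levels, with 14 to 31 of the 150 genes under 10 counts in Redmoon seed coat libraries.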
